A study of Homo sapiens with 2 samples.

Results

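The lamins and their partners at the inner nuclear membrane were followed in HCT116, an established human cell line derived from a colorectal carcinoma. The 10 genes were LMNA, LMNB1, LMNB2, EMD, LBR, TMPO, LEMD2, LEMD3, BANF1 and TMEM43, chosen by name out of 18132 genes with a probe set that carries 1 gene symbol. All 10 were measured, by 40 probe sets. The control cells carried a scrambled short hairpin RNA (Scr), and the knockdown cells carried 1 short hairpin RNA against SUN2 (shSUN2-1). SUN2 spans the inner nuclear membrane as part of the LINC complex, which ties the nucleus to the cytoskeleton. Each group held 1 Affymetrix array of total RNA from cells grown in DMEM with serum. The labels do not say whether the cells were a clone or a pool, or how long the hairpin was expressed. With 1 array per group there is no replicate, so no value below has an SD between cultures and none has a p-value. Every difference given is the value with the SUN2 hairpin minus that with the scrambled hairpin on the log2(intensity + 16) scale, which understates the change of dim probe sets.

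Lamins are intermediate filament proteins that form a meshwork under the inner nuclear membrane. A-type lamins come from LMNA, and B-type lamins from LMNB1 and LMNB2. Proteins anchored in the membrane hold this meshwork and the chromatin in place: the lamin B receptor LBR, the LEM-domain proteins emerin (EMD), LAP2 (TMPO), LEMD2 and LEMD3 (MAN1), and TMEM43 (LUMA). The LEM domain binds BANF1 (BAF), a small protein that bridges DNA and helps to rebuild the envelope after mitosis. A-type lamins also bind SUN2. In epithelial cells these proteins set the stiffness and shape of the nucleus.

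Transcripts of LMNA, TMEM43 and TMPO were higher by 1.2-fold or more with the SUN2 hairpin, and the other 7 genes differed by less. LMNA was 1.39-fold higher, TMEM43 1.33-fold and TMPO 1.23-fold on the probe set of each that was brightest over both arrays. TMEM43 alone of the 3 stayed past 1.2-fold under every other way of processing that was run. As the mean over its probe sets LMNA was at 0.20 and TMPO at 0.13 on the log2 scale, both under 1.2-fold, and TMPO was also under it after quantile normalization (0.19) and loess (0.21). LMNA was under it (0.14) when the probe set brightest in the control array alone was taken, a choice added after the values were seen. That fold is a fixed size that stands in for a test, and across 12218 genes past a filter on dim probe sets 5.96% were as much higher and 0.884% as much lower. No gene of the 10 reached 1.5-fold, where 0.336% of all genes were at least that much higher and 0.0246% that much lower. All 10 genes were higher on their brightest probe set, against 49.8% of all genes, although LBR was lower after quantile normalization or a loess correction on intensity, and TMPO and LEMD3 were lower when the _x_at and _s_at classes were left out. The median difference of the 10 genes was 0.14, and that of all genes was -0.0009, with quartiles of -0.08 and 0.11.

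SUN2 itself was lower by a small amount in the knockdown array. Its brightest probe set went from 497.7 in the control to 407.3, a difference of -0.28. All 6 SUN2 probe sets were lower, and the 4 past the filter ran from -0.39 to -0.07. The target was therefore at 81.8% of control on that probe set, and the comparison is between cells in which most of the SUN2 signal was still present. The epithelial markers EPCAM and CDH1 were read at 1342 and 377.7 in the control array and at 1480 and 389.9 in the knockdown array. All 5 epithelial markers past the filter were higher, by 0.04 to 0.34 with a median of 0.22, and 2 of them, KRT8 and KRT18, by 1.2-fold or more. Over all 6 epithelial markers the summed intensity went from 7385 to 8657. Of 15 markers of fibroblasts, immune cells and endothelium, 6 passed the filter, and all 6 were lower in the knockdown array, by 0.07 to 0.13. Beside these counts, 49.8% of all genes past the filter were higher. That share was 79.9% in the brightest of 10 intensity bins and 30.9% in the dimmest. Summed over every marker with a probe set, those under the filter included, intensity went from 713.1 to 674.4 for the fibroblast list, from 315.9 to 300.2 for the immune list and from 656.7 to 612.5 for the endothelial list, and the part of any marker list in the results was not tested. HCT116 is 1 cell line, so these readings do not measure shares of fibroblasts, immune cells or endothelium. In the control array the 6 readings past the filter ran from 114.4 (KDR) to 254.1 (PDGFRB). Some readings described below lie in that range, such as LEMD2 (179.8), the second LEMD3 probe set past the filter (142.3) and NEMP1 (183.5). Whether any of these readings is signal or background was not tested. For any gene in such bulk RNA, fewer expressing HCT116 cells and less RNA per cell cannot be told apart. The arrays had median intensities of 108.8 and 107.1.

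The 3 genes past 1.2-fold are shown with the 250 bases upstream of an annotated start, since these are the sequences that the leading genes could have in common. The sequences are RefSeq's on GRCh38.p14, all on the plus strand: LMNA at chr1:156082323-156082572, TMEM43 at chr3:14124802-14125051 and TMPO at chr12:98515323-98515572. RefSeq's promoter table held 14 windows for the 10 genes. It lists 3 for LMNA, of which the one furthest upstream is printed, and the arrays do not tell which start was used. Whether the transcripts that the LMNA probe sets are annotated to begin at any of these windows was not tested. The table does not hold every annotated start of LMNA and LEMD2, so what follows covers its windows only. Capitals mark the letters of the GC box GGGCGG, the CCAAT box CCAAT and the element ACTACANNT, which resembles part of the site of the transcription factor ZNF143, each on either strand. The letters of an AP-1 site (TGANTCA) and of a cyclic AMP response element (TGACGTCA) were searched too and are not in these 3 windows. No match overlaps another.
LMNA: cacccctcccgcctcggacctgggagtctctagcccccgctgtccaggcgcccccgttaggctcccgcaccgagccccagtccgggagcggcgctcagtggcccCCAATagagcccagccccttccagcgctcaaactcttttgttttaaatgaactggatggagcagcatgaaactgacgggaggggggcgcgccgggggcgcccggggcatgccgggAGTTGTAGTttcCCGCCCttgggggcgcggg
TMEM43: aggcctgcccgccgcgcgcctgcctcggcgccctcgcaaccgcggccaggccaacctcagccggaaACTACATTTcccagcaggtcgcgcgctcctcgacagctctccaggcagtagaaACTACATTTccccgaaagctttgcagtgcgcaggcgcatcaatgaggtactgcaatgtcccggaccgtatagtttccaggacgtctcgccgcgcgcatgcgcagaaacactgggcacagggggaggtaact
TMPO: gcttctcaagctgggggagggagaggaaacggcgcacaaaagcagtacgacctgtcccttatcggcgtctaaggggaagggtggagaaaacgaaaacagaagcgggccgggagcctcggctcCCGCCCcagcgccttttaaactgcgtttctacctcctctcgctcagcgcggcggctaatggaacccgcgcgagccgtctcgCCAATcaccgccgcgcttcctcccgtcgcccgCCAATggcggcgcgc

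The printed LMNA and TMEM43 windows share the ACTACANNT element, which occurs 1 time in that of LMNA and 2 times in that of TMEM43. It was found in no other window of the 10 genes, and in 3.22% of all 35116 windows of this length. The element was chosen for the search after the windows had been read, so its presence in both is a description. The GC box was found in 9 of the 14 windows of the 10 genes and in 42.6% of all windows. The CCAAT box was found in 6 of the 14 and in 32% of all windows. Windows of 1 gene can overlap, as both of TMPO do. TMPO had 2 CCAAT boxes and 1 GC box. A match to these letters is not evidence of a bound factor.

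LMNA encodes lamins A and C, which are made from 1 gene by alternative splicing. Its brightest probe set, 11752506_s_at, went from 492.0 in the control to 690.3, which is 140.3% of control and a difference of 0.48. This was the 80th largest increase among the 12218 genes. The knockdown value itself made this probe set the brightest, since in the control array 11752340_x_at was brighter, at 537.0. On that probe set LMNA was 1.1-fold higher and stood at rank 2282. The 7 LMNA probe sets did not show a gain of that size in common: their differences ran from -0.03 to 0.48, with a mean of 0.20 and an SD over probe sets of 0.16. This SD covers the spread between probe sets within the arrays, which can include differences between transcripts, and no variation between cultures. A total of 6 of the 7 were higher.

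The LMNA probe sets can be read by the transcript each is annotated to. The probe set annotated to the RefSeq transcript of lamin C (11719260_x_at) read 253.6 and 287.8, a difference of 0.17. The one annotated to the RefSeq transcript of lamin A (11719261_s_at) read 310.3 and 365.5, a difference of 0.23. The lamin A and lamin C probe sets thus differed by similar amounts, less than the brightest set, and neither is known to be specific to its isoform. The probe sets 11752506_s_at and 11752507_x_at are annotated to the same cDNA, and the second read 380.6 and 469.7, a difference of 0.29. The other 3 LMNA probe sets differed by 0.14 (11752340_x_at, from 537.0 to 595.2), 0.10 (11752673_x_at, from 283.0 to 305.5) and -0.03 (11762162_x_at, from 216.4 to 211.3). All 7 belong to the _x_at and _s_at classes, in which the array design allows probes to match further transcripts, so LMNA has no value outside them. With the mean of its probe sets LMNA was 0.20 and no longer past 1.2-fold.

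**Figure D1:**
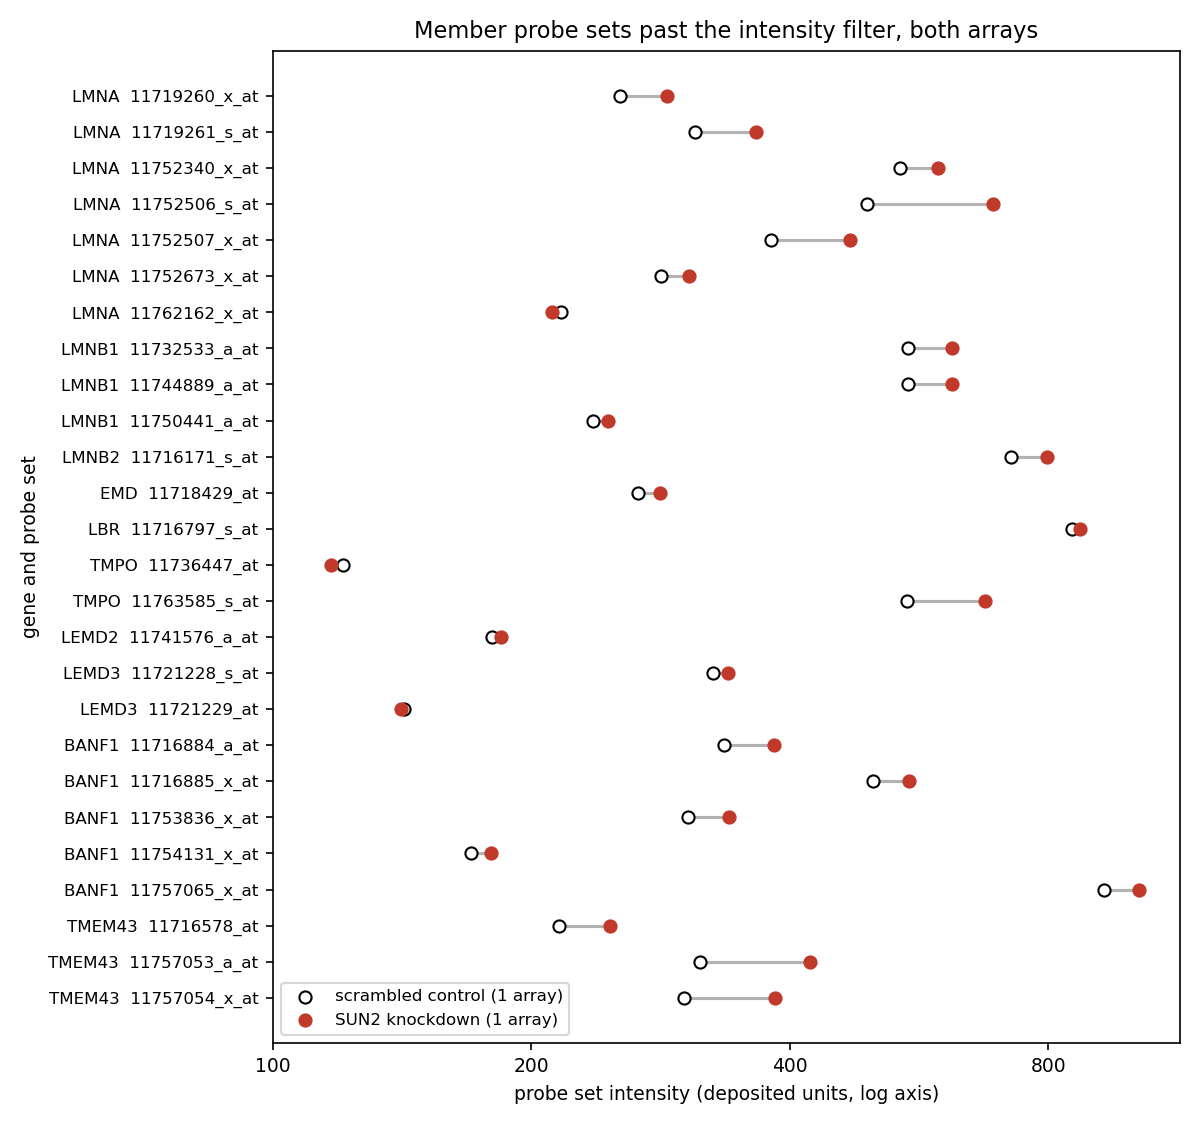
Intensity (log axis, deposited units) of each probe set past the filter in the scrambled control (open circle) and the SUN2 knockdown (filled circle), 1 array each. The widest gaps belong to 11752506_s_at of LMNA (492.0 to 690.3) and 11757053_a_at of TMEM43 (314.5 to 422.1), while 3 probe sets, of LMNA, TMPO and LEMD3, were lower in the knockdown.

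The B-type lamins were higher by smaller amounts. LMNB1, whose protein stays attached to the membrane by a farnesyl lipid, went from 549.2 in the control to 618.6, a difference of 0.17. The same pair of values is listed for 11732533_a_at and 11744889_a_at, which were counted as 1 measurement. A further LMNB1 probe set past the filter (11750441_a_at) read 235.9 and 245.7, a difference of 0.06. LMNB2 read 723.5 and 798.1 on its 1 probe set past the filter, of the _s_at class, a difference of 0.14. The other LMNB2 probe set, at 83.86 and 81.5, lay under the filter, with a difference of -0.03. Readings of 1 gene had a pooled SD of 0.09 over 5775 genes with at least 2 distinct readings past the filter. It covers the spread between probe sets within the arrays, which can include differences between transcripts, and no variation between cultures. After quantile normalization LMNB1 was higher by 0.06 and LMNB2 by 0.04, both less than that SD.

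LBR, which binds B-type lamins and heterochromatin and also acts as a sterol reductase, was nearly level between the arrays. It went from 851.2 in the control to 871.9, which is 102.4% of control and a difference of 0.03. Its sign depended on the scaling, as LBR stood at -0.09 after quantile normalization and at -0.06 after loess. The other LBR probe set, at 69.48 and 68.56, lay under the filter.

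The LEM-domain genes differed most in TMPO. TMPO encodes the LAP2 proteins, of which some span the membrane and LAP2alpha lies inside the nucleus with A-type lamins. Its brightest probe set, 11763585_s_at, read 547.7 and 675.1, 123.3% of control and a difference of 0.29. The only other TMPO probe set past the filter, 11736447_at, is annotated to the RefSeq transcript of LAP2alpha and read 120.7 and 116.9, a difference of -0.04. The array therefore gave 2 readings of TMPO that differed by 0.33 on the log2 scale. The lower one lies close to the filter of 108.2, where background can hide a change, so the 2 readings are not of equal weight. The other 7 TMPO probe sets lay under the filter and differed by -0.06 to 0.14. RefSeq lists 2 named TMPO pseudogenes, and whether the _s_at probe set also reads them was not tested.

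The other LEM-domain genes differed by less than 0.09, the SD of readings within a gene. EMD encodes emerin, which is lost in X-linked Emery-Dreifuss muscular dystrophy. Its 1 probe set, 11718429_at, read 266.0 and 282.5, a difference of 0.08. LEMD3 encodes MAN1, which binds receptor-activated SMAD proteins at the membrane. Its brightest probe set (11721228_s_at) read 325.3 and 338.7, a difference of 0.06, and a second (11721229_at) read 142.3 and 141.1, a difference of -0.01. LEMD2, which recruits the ESCRT machinery when the envelope is resealed, read 179.8 and 184.3 on 11741576_a_at, a difference of 0.03. These 3 genes ranked at the top 30.53%, 36.05% and 41.3% of all genes by increase.

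BANF1 was higher on every probe set, by small amounts that lay close together. Its 5 probe sets past the filter differed by 0.07 to 0.19, with a mean of 0.14 and an SD over probe sets of 0.04. The brightest, 11757065_x_at, read 929.3 and 1021, a difference of 0.13. The brightest BANF1 probe set of another class than _x_at and _s_at, 11716884_a_at, read 335.5 and 383.8, a difference of 0.19. The remaining 3 went from 499.4 to 550.7 (11716885_x_at), from 304.7 to 339.6 (11753836_x_at) and from 170.3 to 179.6 (11754131_x_at). RefSeq lists 5 named BANF1 pseudogenes, and 11757065_x_at is annotated to a predicted transcript, so the assignment of that reading to BANF1 is uncertain.

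TMEM43 encodes LUMA, a membrane protein that binds emerin and lamins and is mutated in a form of arrhythmogenic cardiomyopathy. All 3 of its probe sets passed the filter and all 3 were higher. The brightest, 11757053_a_at, read 314.5 and 422.1, 134.2% of control and a difference of 0.41. A second probe set annotated to the same cDNA, 11757054_x_at, read 301.0 and 384.6, a difference of 0.34. The third, 11716578_at, which is annotated to another cDNA, read 215.4 and 246.9, a difference of 0.18. The mean over the 3 was 0.31 with an SD over probe sets of 0.11, and TMEM43 ranked 154th by increase among the 12218 genes. TMEM43 was at least 1.2-fold higher under each of the 13 other ways of processing that were run, from 0.31 to 0.45.

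**Figure D2:**
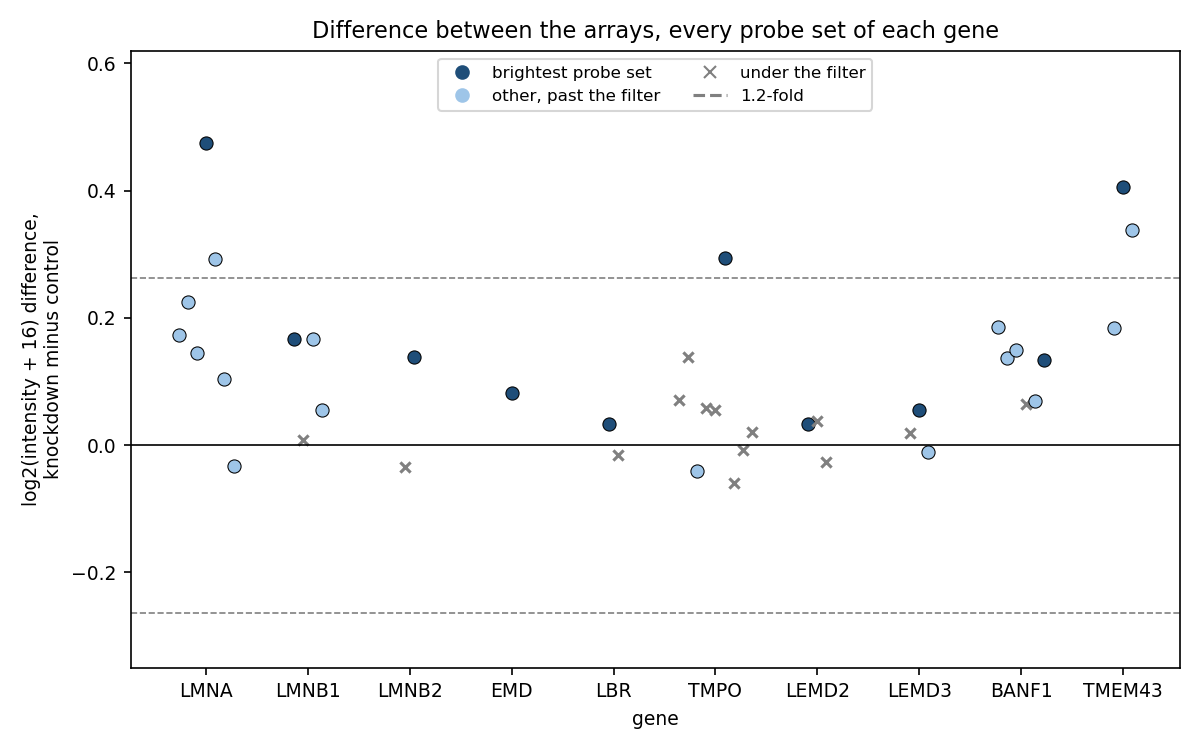
Difference between the arrays (knockdown minus control, log2(intensity + 16)) for all 40 probe sets by gene; dark points are the brightest probe set, light points others past the filter, crosses those under it, and dashed lines mark 1.2-fold. LMNB1, BANF1 and TMEM43 lie above 0 on every probe set, as does EMD on its only one, LMNA spreads from -0.03 to 0.48 and TMPO from -0.06 to 0.29.

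By probe set, 25 distinct readings of the 10 genes passed the filter, of which 22 were higher and 3 lower. Of all 22592 distinct probe set readings past the filter, 51% were higher. The 5 readings at least 1.2-fold higher belonged to LMNA (2), TMEM43 (2) and TMPO (1), where 6.22% of all readings were as much higher. Of the 6 genes with at least 2 distinct readings, LMNB1, BANF1 and TMEM43 were higher on every one, as were 34.5% of all such genes. The 14 probe sets under the filter read between 34.75 and 106.4 and differed by -0.06 to 0.14, with 9 higher and 5 lower.

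Bright genes as a whole were higher in the knockdown array, and most of the 10 genes were bright. When the 12218 genes were put in 10 bins of about equal size by mean intensity, the median difference went from -0.04 in the dimmest bin to 0.10 in the brightest. The 2 brightest bins held 6 of the 10 genes (LMNA, LMNB1, LMNB2, TMPO, LBR and BANF1), and 70.4% and 79.9% of all genes in those bins were higher. Against the median of its own bin, LMNA was still higher by 0.39, TMEM43 by 0.36 and TMPO by 0.21. The other 7 genes lay between -0.07 (LBR) and 0.09 (EMD) of their bins. After loess correction on intensity, 9 of the 10 genes were higher, with a median of 0.06. Of all genes 46.1% were higher after it, with a median of -0.01. LMNA (0.40) and TMEM43 (0.37) were past 1.2-fold after loess. TMPO (0.21) was not. After that correction 3.87% of all genes were at least 1.2-fold higher and 1.57% as much lower, and after quantile normalization 3.09% and 1.98%.

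**Figure D3:**
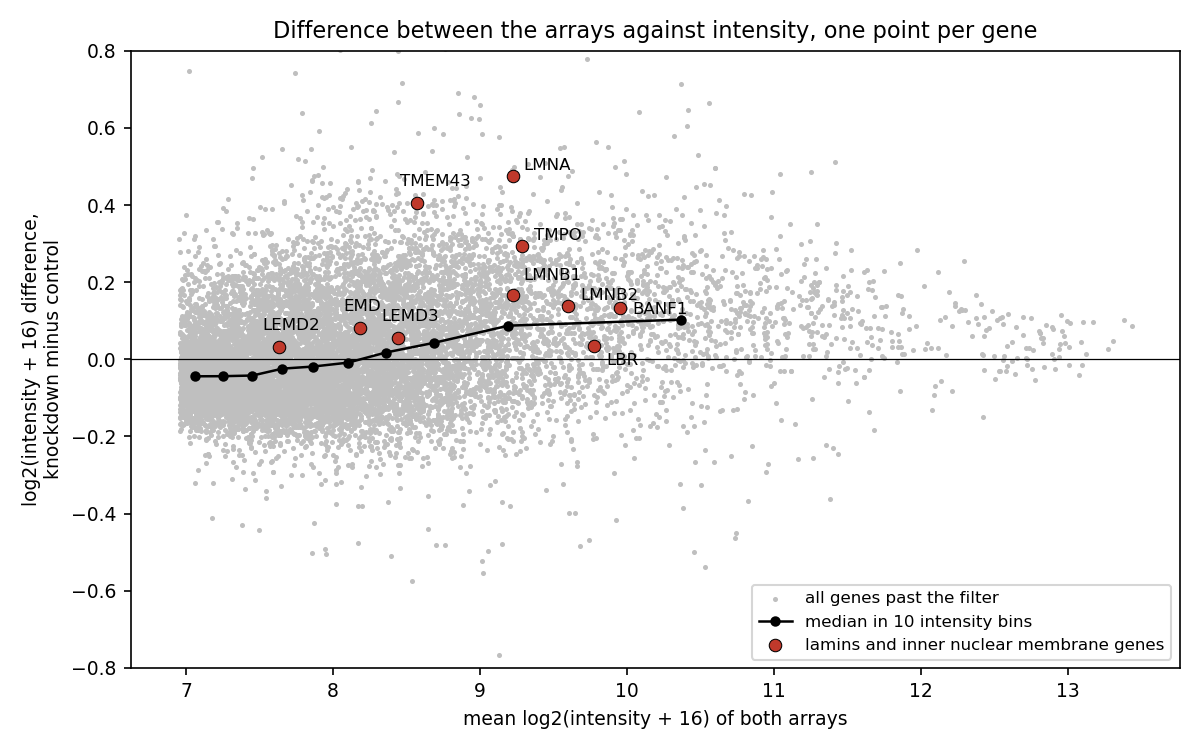
Difference between the arrays against mean log2(intensity + 16), 1 point per gene, with the lamin and inner nuclear membrane genes in red and the median of 10 intensity bins as a black line; 20 genes lie outside the vertical range. The median line climbs from -0.04 to 0.10, LMNA, TMEM43 and TMPO stand above it, and LBR lies below it.

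**Figure D4:**
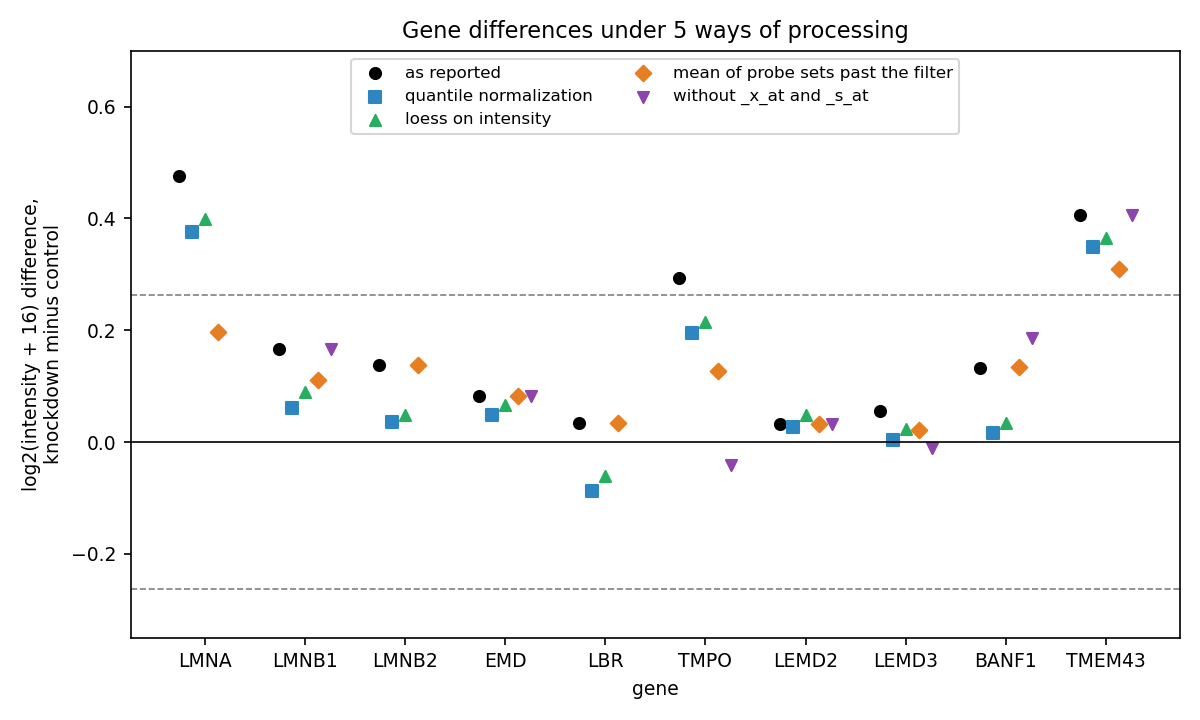
Difference of each gene under 5 ways of processing, with dashed lines at 1.2-fold; genes without a purple triangle have no probe set left past the filter. TMEM43 is past 1.2-fold in all 5, LMNA drops to 0.20 with the mean of its probe sets, TMPO ranges from 0.29 to -0.04, and LBR turns to -0.09 and -0.06.

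The enzymes and partners of these proteins gave 42 further genes in 7 lists, chosen with earlier results of these data known. Of them 39 passed the filter. A total of 3 were at least 1.2-fold higher (ZMPSTE24, VRK1 and ANKLE2) and 2 as much lower (SUN2 and NEMP1), beside the 5.96% and 0.884% of all genes. The only one of these 5 genes past 1.2-fold after both quantile normalization and loess was SUN2, which was under it with a pseudocount of 64 (-0.25), median centring (-0.26) or the mean over all its probe sets (-0.21). Lamin tails are farnesylated, cut and methylated by enzymes listed here as 5 genes, of which 4 were measured. ZMPSTE24, the protease that makes mature lamin A, went from 607.0 to 750.2, a difference of 0.30 on its 1 probe set past the filter, of the _s_at class. ICMT, the methyltransferase of this pathway, differed by -0.14 on one probe set and 0.23 on the other. The list's median was 0.04.

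The kinases, phosphatase subunits and LEM protein that control BANF1 phosphorylation were higher on the brightest probe sets of all 5 genes, beside 49.8% of all genes, with a median of 0.24. VRK1, the kinase that releases BANF1 from DNA, went from 281.3 to 341.9, a difference of 0.27. ANKLE2, the LEM protein that opposes VRK1, went from 288.6 to 355.7 on its brightest probe set, a difference of 0.29, while its 3 other probe sets past the filter lay between -0.0034 and 0.04. The phosphatase subunit gene PPP2R1A was at 0.10 on its brightest probe set, while 2 of its 5 probe sets past the filter were lower, one of them from 393.1 to 339.2, a difference of -0.20. After quantile normalization VRK1 was at 0.22, ANKLE2 at 0.24 and ZMPSTE24 at 0.19, and after loess at 0.24, 0.26 and 0.21, all under 1.2-fold. The ESCRT list, whose proteins reseal the envelope, had a median of 0.07, with 5 of 7 genes higher and none past 1.2-fold. Its members with the largest differences were the ATPase VPS4A (0.22) and the microtubule-severing spastin gene SPAST (0.20).

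Among 11 other inner nuclear membrane and torsin genes the median was 0.02, with 6 higher and 5 lower. NEMP1, an envelope protein that supports nuclear stiffness, went from 183.5 to 150.2, a difference of -0.26, which is just past 1.2-fold. It was under that size after loess (-0.24), median centring (-0.24), a pseudocount of 64 (-0.21) or normexp with an offset of 50 (-0.24). TOR1AIP1, which encodes the lamin-binding torsin activator LAP1, went from 558.3 to 665.0, a difference of 0.25. Its other probe set past the filter read 119.8 and 125.1, a difference of 0.06. TOR1AIP1 was at 0.14 after quantile normalization and at 0.17 after loess. In the LINC complex, 4 of the 5 genes past the filter were lower, while 49.8% of all genes were higher. The 4 include SUN2, the target of the hairpin. SYNE2, which encodes nesprin-2, was another of them (from 262.7 to 218.5, a difference of -0.25). SYNE2 was lower on each of its 3 probe sets past the filter, of which 11756450_s_at was 1.34-fold lower, from 253.6 to 185.2. SYNE2 was past 1.2-fold lower as the mean over probe sets past the filter (-0.29) and after quantile normalization (-0.28). The same held with a pseudocount of 1 (-0.265) and normexp without offset (-0.29). SYNE2 was under that size on its brightest probe set and after loess (-0.25), median centring (-0.23) or a pseudocount of 64 (-0.21). It was also under it with normexp at an offset of 50 (-0.23) and as the mean over all its probe sets (-0.20). SUN1 was higher, from 560.3 to 657.1, a difference of 0.22, and stood at 0.12 after quantile normalization and at 0.14 after loess. The sterol reductases related to LBR, TM7SF2 (-0.13) and DHCR7 (-0.07), were both lower. Of 5 binding partners of lamins, emerin and LAP2, 3 were higher and none passed 1.2-fold, with RB1 at 0.14 and HDAC3 at 0.13.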

How the data were processed

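Total RNA of 2 HCT116 cultures was hybridised to Affymetrix arrays. The authors deposited linear intensities per probe set. MAS5 and RMA stand in the submitters' processing notes, without saying what each was used for. How the arrays were scaled to each other was not stated in the sources used here. Background was still in the values: the 23 background control probe sets read 31.2 to 1425 on the control array, and 20 were lower on the knockdown array. The depth measure of arrays is their number, 1 per group, which limits the precision.

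Of 49293 probe sets other than controls, 44988 carried 1 symbol in the platform annotation, 1832 several and 2473 none. For 44961 of the first, the Entrez ID gave the current symbol in RefSeq's GRCh38.p14 table. Differences were taken on log2(intensity + 16). A probe set passed the filter at or above the median mean intensity of 108.2, and a gene was represented by its brightest such probe set. Probe sets of a gene with identical values on both arrays counted once where readings were counted or averaged. Genes were counted past 1.2-fold, with 1.5-fold beside it, without a test. The named genes were the 10 members with every probe set, SUN2, SUN1, and in each context list any gene past 1.2-fold and at least the 2 with the largest differences. The members, lists and sizes were chosen with earlier results of these data known. Alternatives were pseudocounts of 1 and 64, 2 other filters, median centring, quantile normalization, loess (statsmodels 0.14.6, span 0.4), normexp background correction (limma 3.58.1, offset 50, and no offset, added after the values were seen), 2 means over probe sets, the probe set brightest in the control array (also added then), and leaving out the _x_at and _s_at classes. The gene steps were run on simulated data with changes of 1.5-fold or more and no trend with intensity. That run does not show how well sizes near 1.2-fold are recovered.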

Additional observations from a re-analysis of the deposited data

How the results depend on the processing

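No paired analysis was possible because there was a single array of each kind, which also means that none could be removed. A value was taken to have moved when it changed by more than 0.09, the SD of readings within a gene. Quantile normalization moved LMNA to 0.375, LMNB1 to 0.062, LMNB2 to 0.036, LBR to -0.087, TMPO to 0.19 and BANF1 to 0.017. Loess moved LBR to -0.061 and BANF1 to 0.034. The mean over probe sets past the filter moved LMNA to 0.20, TMPO to 0.13 and TMEM43 to 0.31. With those under the filter LMNA was 0.20, TMPO 0.059 and TMEM43 0.31. Under either mean 1 gene in place of 3 was past 1.2-fold, beside 4.49% and 3.06% of all genes as much higher. Without the _x_at and _s_at classes TMPO turned to -0.041, read on the dim probe set 11736447_at alone. In that setting 7 genes had a value, of which 5 were higher and 1 past 1.2-fold, beside 46.7% and 5.53% of all genes. LMNA, LMNB2 and LBR had no value there, and LEMD2 had none with the filter at the 75th percentile. The probe set brightest in the control array moved LMNA to 0.14, which left 2 genes past 1.2-fold, beside 5.75% of all genes as much higher. Quantile normalization and loess each left 9 genes higher, beside 41% and 46.1% of all genes. Each left 2 genes past 1.2-fold, beside 3.09% and 3.87% of all genes as much higher. No gene of the 10 was at least 1.2-fold lower under any of the 13 alternatives. EMD stayed between 0.05 and 0.10, and SUN2 between -0.36 and -0.21. The cause of these shifts was not tested. Background left in the values limits what dim probe sets can show.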

Other observations

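One probe set that names a member was left out because it carries 2 symbols, LMNB1 and PCIF1. It went from 105.8 in the control to 110.1, a difference of 0.05.

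Keratins that HCT116 cells share with other simple epithelia were higher in the knockdown array. On the brightest probe sets KRT8 and KRT18 were higher by more than TMPO and less than LMNA, and KRT19 by less than TMPO. That order depended on the probe sets. As the mean over those past the filter, KRT8 (0.46), KRT18 (0.30) and KRT19 (0.22) stood above LMNA (0.20) and TMPO (0.13). KRT8 went from 1041 to 1325 on its brightest probe set, a difference of 0.34, and its 8 probe sets past the filter were all higher, by 0.34 to 0.58. KRT18, the partner of KRT8 in simple epithelial filaments, went from 1872 to 2339, a difference of 0.32. KRT19, which also forms filaments with KRT8, went from 2619 to 3045, a difference of 0.22 and under 1.2-fold. After loess correction on intensity KRT8 stood at 0.24, KRT18 at 0.21 and KRT19 at 0.10, beside 0.40 for LMNA and 0.21 for TMPO. KRT8, KRT18 and KRT19 are members of the epithelial marker list and were singled out after their values were seen.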
